A study of Sus scrofa with 23 samples.

Results

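CCL8, CCL24 and CXCL14 are 3 of the 6765 genes that the array annotation names by a single symbol in this series of pig macrophages. They were taken by symbol, and no measured value entered the choice. They are represented by 4 probe sets, 1 each for CCL8 and CCL24 and 2 for CXCL14. The cells were bone marrow-derived macrophages of Large White x Landrace F1 pigs, grown from bone marrow with recombinant human CSF1, the growth factor that drives precursors to macrophages. All arrays share that culture. Arrays labelled 0 h are unstimulated, and those labelled 2, 7 and 24 h come from cells given 100 ng/ml LPS, the outer membrane lipid of gram-negative bacteria, here from Salmonella. There are 6, 6, 6 and 5 arrays at these labelled times, from 3 animals, each with a culture and a duplicate culture, except that labelled pig 3 has 1 array at 24 h. Pigs 1 and 3 are labelled male and pig 2 female. Total RNA of the whole culture was measured, so more cells of a kind and more transcript per cell cannot be told apart.

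Chemokines are small secreted proteins that guide leukocytes along a gradient through receptors of the G protein-coupled family. CCL8 attracts monocytes and other leukocytes, mainly through receptors it shares with CCL2, and is made by macrophages and stromal cells exposed to microbial products or interferon. CCL24 attracts eosinophils through CCR3 and is known as a product of macrophages exposed to interleukin 4. CXCL14 is made without stimulation in many epithelial and stromal tissues and attracts monocyte and dendritic cell precursors. By RefSeq's genes for Sscrofa11.1, CCL8 lies between CCL1 and CCL11, with CCL2 next after CCL11, CCL24 lies beside CCL26, and CXCL14 lies between NEUROG1 and SLC25A48, with no other chemokine among its neighbours on either side.

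The labels of time and animal did not hold up in these arrays. EIF1AY, a gene of the Y chromosome, had log2 intensities of 3.60 to 4.08 on 8 arrays and of 8.16 to 9.45 on 15, and on 8 of the 23 arrays its level went against the labelled sex. Of the 22 arrays with a labelled duplicate culture, 0 had that duplicate as the most similar array. With the members' probe sets left out of the measure, 11 pairs stood out in which each array was closest to the other. All 11 are neighbouring columns of the deposited table, share the labelled animal and the EIF1AY level, and differ in the labelled time. Levels are therefore given first for each array by its column in the deposited table. A column number is a position only, and no time was assigned from it. Of the 8 macrophage markers measured, named here with their values known, TYROBP (12.61 to 13.14) and SPI1 (9.57 to 10.31) were bright on every array. CD163 (7.85 to 11.36), CD14, FCGR1A (7.04 to 8.83) and MRC1 varied by more than 1 log2 unit. MARCO (5.58 to 6.15) and ITGAM (4.39 to 5.03) were dim throughout. Of the T cell receptor components, CD3E lay between 4.21 and 4.99 and CD3G between 4.13 and 4.79. Both lay near the 25th percentile of all probe sets, which was 4.39 to 4.54 on the arrays. CD3D lay higher, between 5.61 and 6.31.

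CCL8 was bright on most arrays, and a limit of 13 on the log2 scale was used to divide all arrays into a high and a low set. In columns 1 and 2 its log2 intensity was 10.86 and 11.27, in columns 3 and 4 it was 12.07 and 11.63, and in columns 5 and 6 it was 10.88 and 11.15. Columns 7 to 18 were all high, from 13.98 in column 18 to 14.46 in column 10. Columns 19 and 20 held the lowest values of the series, 8.98 and 8.51, while columns 21 and 22 were high again at 14.05 and 14.02, and column 23 lay between at 12.15. In all, 14 arrays were above 13 on the log2 scale and 9 were below, with nothing between 12.15 and 13.98. The widest gap, of 1.89 log2 units, lay inside the low set, between 8.98 and 10.86, and left columns 19 and 20 apart. From the lowest to the highest array the span was 5.95 log2 units, or 61.7-fold. The most similar pairs of arrays differed in CCL8 by a median of 0.07 and at most 0.46. The high values sat close to the top of the array's scale, whose brightest probe set reached 14.78 to 14.91. Whether that limits the differences among the high arrays was not tested.

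CCL24 was dim on 19 arrays and bright on 4. The 4 bright arrays were columns 15 and 16, at 9.01 and 8.73, and columns 21 and 22, at 9.44 and 9.12. On the other 19 arrays it ran from 3.80 in column 1 to 5.80 in column 19, and no value lay between 5.80 and 8.73. Columns 1 to 8 stayed between 3.80 and 4.51. Columns 9 and 10 had 5.13 and 4.84, columns 11 and 12 had 3.93 and 4.36, and columns 13 and 14 had 4.87 and 4.72. Columns 17 to 20 had 4.81, 5.08, 5.80 and 5.57, and column 23 had 4.20. The measured span was 5.63 log2 units, against a median difference of 0.28 and a largest of 0.71 within the most similar pairs. The lower values lie around the 25th percentile of all probe sets, and whether they differ from background was not tested, since no detection call was used, so no fold is given for this gene. All 4 bright arrays had the low EIF1AY level. The other 4 arrays with that level, columns 3, 4, 9 and 10, had CCL24 at 4.29, 4.18, 5.13 and 4.84, so the low EIF1AY level held both bright and dim arrays. On the 15 arrays with high EIF1AY, CCL24 ran from 3.80 to 5.80.

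CXCL14 varied less than the other members and in steps rather than in separate sets. Its brighter probe set was highest in columns 1 and 2, at 10.24 and 10.48, and in columns 19 and 20, at 10.35 and 10.34. It was lowest in columns 15 and 16, at 7.96 and 7.99, and in columns 17 and 18, at 8.26 and 8.12. Columns 3 to 6 had 9.32, 9.29, 9.65 and 9.62, and columns 7 and 8 had 9.95 and 9.86. Columns 9 to 12 lay between 8.95 and 9.12, columns 13 and 14 had 9.68 and 9.66, columns 21 and 22 had 9.25 and 9.20, and column 23 had 8.58. The span was 2.52 log2 units, or 5.74-fold, and the most similar pairs differed by a median of 0.03 and at most 0.24. The second CXCL14 probe set spanned 3.81 log2 units, from 5.56 in column 18 to 9.37 in column 2. The 2 probe sets ran together, with a Pearson r of 0.94 over the 23 arrays and 0.94 over 12 values in which each most similar pair was averaged. They were not alike in size of change: between columns 1 and 17 the brighter one differed by less than the second one did, with 10.24 and 8.26 against 9.18 and 5.75.

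**Figure D1:**
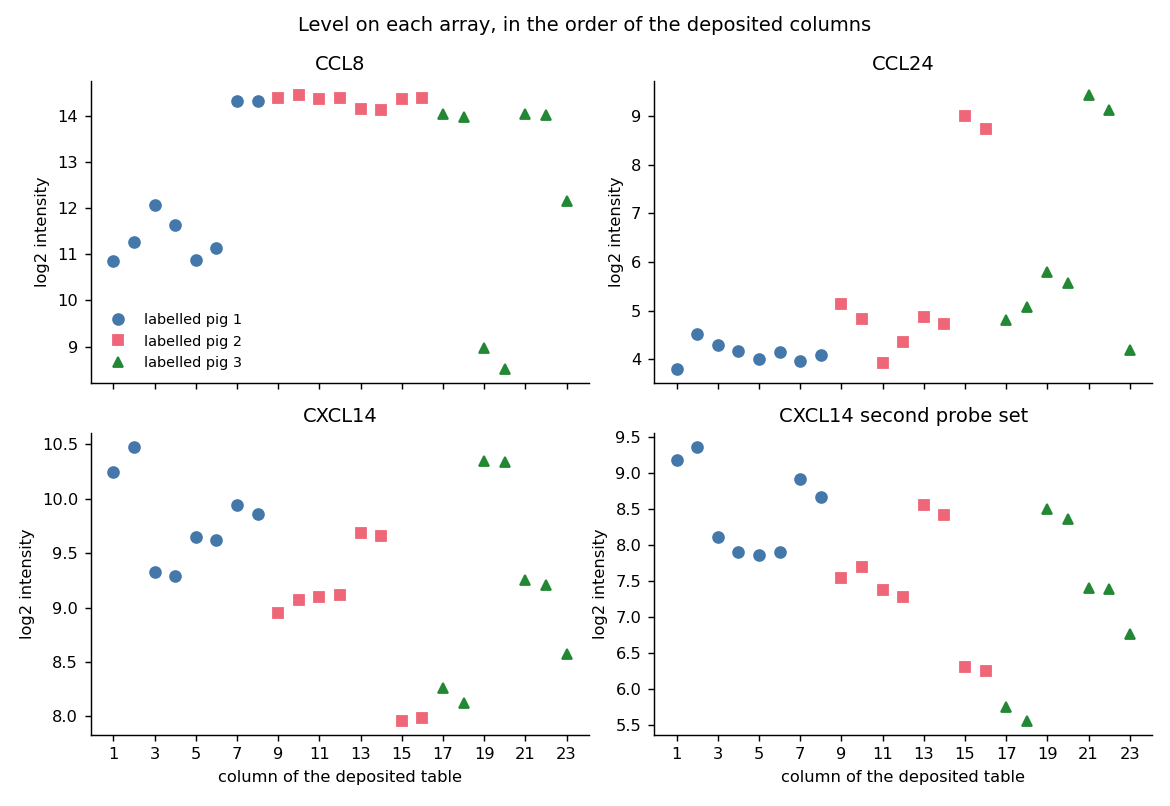
Log2 intensity (vertical axis) of the 4 probe sets on each of the 23 arrays, by column of the deposited table (horizontal axis), with the labelled animal as symbol and colour; each point is 1 array. CCL8 is high in columns 7 to 18, 21 and 22, CCL24 is bright in columns 15, 16, 21 and 22 alone, and CXCL14 is lowest in columns 15 to 18.

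A span of 2 log2 units or more was reached by all 3 genes and by 13.3% of genes in all, and one of 4 or more by CCL8 and CCL24 and by 2.26% of genes. Of the 6765 genes, 34 had a wider span than CCL8, 41 a wider measured span than CCL24, whose low end is near background, and 530 a wider span than CXCL14. Other chemokines were among the wide ones: CXCL9, induced by interferon gamma, ran from 4.18 to 13.93, CXCL13, which attracts B cells, from 4.90 to 13.54, and CCL5, which attracts T cells and monocytes, from 7.52 to 13.79. That span of 2 was reached by 4 of the 10 other CC chemokines measured and by 6 of the 7 other CXC, CX3C and XC chemokines. Their median spans were 1.11 and 5.89 log2 units, against 0.96 over all genes.

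Pearson r over the 23 arrays was 0.24 between CCL8 and CCL24, -0.60 between CCL8 and CXCL14, and -0.40 between CCL24 and CXCL14. These and the following r values describe the arrays and carry no p, since 22 of the arrays form most similar pairs and all share 1 normalization. Because CCL24 falls into sets and CCL8 was divided at 13, r was also taken within a set where it held at least 6 arrays. Within the 14 arrays high in CCL8, its r with CXCL14 was 0.03 and with CCL24 -0.23, and within the 9 low arrays these were -0.71 and -0.83. The positive r of CCL8 with CCL24 over all arrays was thus negative within either set, but CCL8 ran only from 13.98 to 14.46 in the high set, and the low set holds few separate values. It is made of columns 1 to 6, 19, 20 and 23, and all but column 23 fall into most similar pairs. In columns 19 and 20, the lowest in CCL8, CCL24 was 5.80 and 5.57, against 3.80 to 4.51 on the other low arrays. How far the -0.83 rests on that pair was not tested. Within the 19 arrays dim in CCL24, where its values were not tested against background, its r with CCL8 was -0.25 and with CXCL14 0.02. By the brighter CXCL14 probe set, columns 15 and 16 combined high CCL8, bright CCL24 and the lowest CXCL14, whereas columns 19 and 20 combined the lowest CCL8 with CXCL14 near its highest. The second probe set was lowest in columns 17 and 18, at 5.75 and 5.56, against 6.31 and 6.25 in columns 15 and 16. In columns 19 and 20 it had 8.51 and 8.36, against 9.18 and 9.37 in columns 1 and 2.

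CCL2, the main monocyte-attracting chemokine and a near neighbour of CCL8 in the genome, was the gene most like CCL8, with r = 0.95 over 23 arrays. It ran from 11.17 to 14.41, and its r with CCL8 was 0.70 within the 14 high and 0.72 within the 9 low arrays. The next were PCNA, the sliding clamp of DNA replication (r = 0.94), CITED2, a transcriptional co-regulator (0.92), ALAS1, the first enzyme of haem synthesis (0.90), and CCL4, a chemokine for monocytes and T cells (0.88). Within the 14 high arrays, r was 0.28 for PCNA, 0.10 for CITED2 and 0.28 for ALAS1, whereas CCL4 had 0.82 there and had -0.04 within the 9 low arrays. In the high set CCL8 ran only from 13.98 to 14.46, near the top of the scale. The r values within that set, that of CCL2 included, therefore carry little. The genes that ran most against CCL8 were ASXL2, a chromatin regulator (r = -0.91), TGIF1, a repressor of TGF-beta responses (-0.89), and DTWD1 (-0.89). TNF, the cytokine released early by activated macrophages, had r = 0.88 with CCL8, CD83, a surface protein of mature dendritic cells, had 0.80, and IL1B had 0.62. IL6 had -0.05.

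CCL24 was most like LOC396566, a locus without a gene name, with r = 0.97 over 23 arrays, and this gene ran from 4.01 to 8.39. Within the 19 arrays dim in CCL24 its r was 0.73. The next genes were dim ones: DEUP1, a centriole assembly protein (r = 0.85), HEY2, a transcriptional repressor downstream of Notch (0.85), CYP3A39, a cytochrome P450 (0.83), and GRIP1, a scaffold protein (0.82). Within the 19 dim arrays these had r of -0.01, 0.61, 0.46 and 0.33, so the likeness of DEUP1 rested on columns 15, 16, 21 and 22. The genes that ran most against CCL24 were LOC100739163 (r = -0.86, and -0.81 within the 19 arrays), GPM6B, a membrane glycoprotein (-0.86 and -0.56), and PRKAR1A, a regulatory subunit of protein kinase A (-0.86 and -0.44). Among listed genes, IL6 had r = 0.74 with CCL24, CCR7, which guides dendritic cells and lymphocytes to lymph nodes, 0.74, CD2, an adhesion receptor of T and NK cells, 0.68, and DPP4, a peptidase that trims chemokines, 0.67. For these listed genes r was not taken within the 19 dim arrays, so how far it rests on the bright ones was not tested.

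CXCL14 was most like PINK1, a kinase that marks damaged mitochondria, with r = 0.91 and levels from 7.13 to 9.27. It was followed by MEF2D, a transcription factor (0.90), TPM1, a tropomyosin of the actin cytoskeleton (0.90), HUS1, a DNA damage checkpoint protein (0.90), and SERPINF1, a secreted anti-angiogenic factor also known as a stromal product (0.88). CPT1A, which carries fatty acids into mitochondria (r = -0.89), POLA2, a subunit of DNA polymerase alpha (-0.87), and CYB5B, a cytochrome b5 of mitochondria (-0.87), ran most against it. Over the 12 averaged values, the r values of these 8 genes had the same signs and sizes between 0.87 and 0.93.

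**Figure D2:**
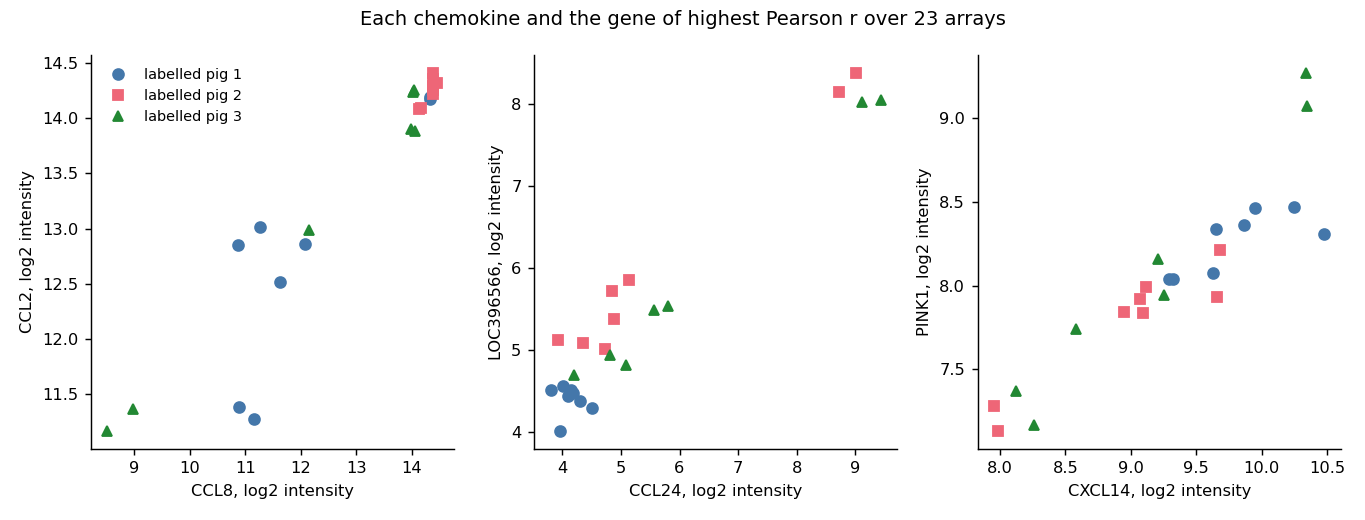
Log2 intensity of each chemokine (horizontal axis) against the gene of highest Pearson r over the 23 arrays (vertical axis), with 1 point an array and the labelled animal as symbol and colour. CCL24 with LOC396566 falls into separate sets of arrays and CCL8 with CCL2 shows gaps between groups of arrays, whereas CXCL14 with PINK1 forms a continuous run.

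Genes of the interferon response ran with CCL8 and CCL24 and against CXCL14, as did genes of some other lists. All 15 measured genes of that list had a positive r with CCL8 (median 0.52) and with CCL24 (median 0.51), and 0 of 15 did with CXCL14 (median -0.52). Over all genes the median r was -0.05, -0.03 and 0.03, with 3107, 3218 and 3493 of 6765 genes positive. For CCL8 the values included 0.61 for GBP1, 0.54 for IFIT1, 0.52 for ISG15 and 0.24 for OAS1, all interferon-induced antiviral genes. IFNB1, the interferon beta gene, named after its values were seen, had 0.86 with CCL8 and ran from 3.27 to 9.08. For CCL24 the same 4 antiviral genes had 0.48 to 0.55. How far the r values of this and the other lists with CCL24 rest on the arrays bright in CCL24 was not tested. Of 4 dendritic cell markers, 4 had a positive r with CCL8, 4 with CCL24 and 0 with CXCL14. Of the 7 other CXC, CX3C and XC chemokines these counts were 6, 7 and 0. With CCL8, the summed intensity of the interferon list had r = 0.56. That was below other CC chemokines (0.84), dendritic cell markers (0.81) and genes of the LPS receptor and NF-kB pathway (0.72). The remaining lists lay lower than the interferon list. Of the dendritic cell markers, CD83 was at 10.08 or above on every array and had r = 0.80 with CCL8. CIITA, CCR7 and XCR1 did not exceed 8.52 and had 0.53, 0.25 and 0.05. The sum of the dendritic cell markers is therefore not separate from CD83.

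Of the genes tied to interleukin 4 and alternative activation, 9 of 15 had a positive r with CCL24, with a median of 0.22. The summed intensity of that list had r = 0.59 with CCL24, and that of the interferon list 0.52. Such a sum gives most weight to bright genes. ARG1, the arginase used as a marker of alternative activation, ran from 8.09 to 13.37, the highest level of the list, and had 0.58. The r of the sum is therefore not separate from that of ARG1. IL13RA1, a subunit of the receptor for interleukins 4 and 13, had 0.62. PPARG, a nuclear receptor of lipid metabolism, had -0.13, and CD163, a haemoglobin scavenger receptor, had -0.15. With CXCL14, CD163 had 0.75 and PPARG 0.63, and 7 of 15 genes of the list were positive.

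Of the receptors, 9 of 23 listed had a named probe set. CCR1, a receptor for CCL8 among others, was bright throughout, from 11.43 to 12.80. CCR2, the CCL2 receptor, stayed between 4.50 and 5.14, and CCR3, the CCL24 receptor, between 4.57 and 6.72. CXCR4, the CXCL12 receptor, ran from 9.97 to 13.92, CCRL2, an atypical receptor, from 8.38 to 12.80, and CCR7 from 5.98 to 7.92. CCR9 (4.45 to 5.25), CXCR6 (4.09 to 4.92) and XCR1 (6.52 to 7.23) each spanned under 1 log2 unit. With their own ligands, r was -0.38 for CCR1 with CCL8 and 0.15 for CCR3 with CCL24. CCR2 had r = -0.49 with CCL8, but it spanned too little at too low a level for that r to be read. CXCR4 had r = 0.47 and CCRL2 r = -0.68 with CXCL14.

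Of 11 measured stromal markers, 7 had a positive r with CXCL14, against 3493 of 6765 over all genes, and the median was 0.46, among them PDGFRB, a receptor of fibroblasts and pericytes (0.77), the matrix proteoglycans DCN (0.76) and LUM (0.62), and COL6A3, a collagen VI chain (0.73). LUM ran from 3.23 to 9.38 and DCN from 4.47 to 8.76. The summed intensity of the 11 ranged from 4639 to 20109 over the arrays and had r = -0.04 with CXCL14. The other 4 had a negative r with CXCL14: VCAM1 (-0.35), the brightest, COL3A1 (-0.31), CXCL12 (-0.30) and COL1A2 (-0.13), all named with their values known. CXCL12 stayed between 3.71 and 4.41, so its r can be read no more than that of CCR2. The defining collagen COL1A2 stayed between 6.80 and 7.42. The part of stromal cells in the CXCL14 levels was not tested. Macrophage markers, 8 in all with a summed intensity from 9014 to 14214, had a median r of 0.01 with CXCL14, with 4 of 8 positive, while their sum had r = 0.73 with it. The brightest were TYROBP (12.61 to 13.14, r = 0.58) and CD163 (up to 11.36, r = 0.75), both named with their values known. The sum is not separate from them. The part of macrophage number or state in the CXCL14 levels was not tested. Of 5 granulocyte markers, all had a positive r with CXCL14 (median 0.25), with S100A9 from 9.41 to 13.73. Of 8 lymphocyte markers, 5 had a positive r with CCL24 (median 0.06), while their sum had r = 0.69 with it. CD2 ran from 5.18 to 10.45 and no other of them exceeded 6.31, so the sum is not separate from CD2. With CCL24, CD3D (5.61 to 6.31) had r = 0.51, CD3G 0.33, CD8B -0.16 and CD79B -0.30. CD3E, CD4 and CD8A did not exceed 5.09 and had r from -0.00 to 0.07 with CCL24. Apart from CD2, each spanned under 1 log2 unit, so these r values carry little. Eosinophil markers EPX and PRG2 had no named probe set.

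**Figure D3:**
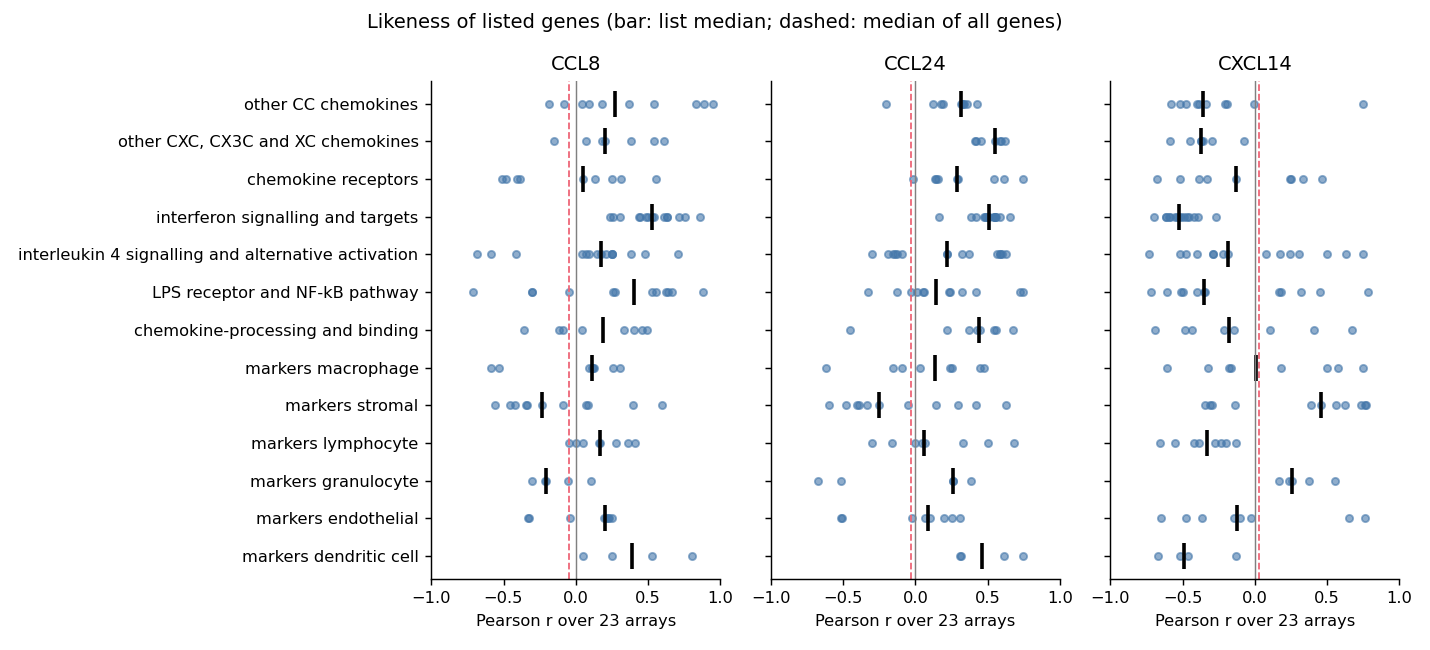
Pearson r over 23 arrays (horizontal axis) of each listed gene with CCL8, CCL24 and CXCL14, by list; each point is a gene, the black bar the median of the list and the dashed line the median over all genes. Interferon genes lie to the right for CCL8 and CCL24, at medians of 0.52 and 0.51, and to the left for CXCL14, at -0.52. Dendritic cell markers lie on the same sides, at medians of 0.39, 0.46 and -0.49.

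The study asked how expression changes after LPS, and under the labels as deposited none of the 4 probe sets passed the test between times. For CCL8, the means at the labelled 0, 2, 7 and 24 h were 13.06 ± 1.90, 13.17 ± 1.70, 12.71 ± 1.95 and 11.96 ± 3.07 (log2, SD, n = 3 labelled pigs). The arrays at each of these times overlapped those at all others, from 10.86 to 14.38 at 0 h and from 8.51 to 14.39 at 24 h. For CCL24 they were 5.34 ± 1.63, 5.40 ± 1.48, 5.20 ± 1.18 and 5.41 ± 1.21, with 1 bright array at each labelled time. For the brighter CXCL14 probe set they were 9.34 ± 0.59, 9.36 ± 0.69, 9.21 ± 0.60 and 9.49 ± 0.90.

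Against 0 h, the limma test called 0 of the 4 probe sets for 2 h, where 0.0125% of all probe sets were called, 0 for 7 h (0% of all), and 0 for 24 h (0.00417% of all). For the steps from 2 to 7 h and from 7 to 24 h it also called 0 (0.00417% each), and over all times 0 (0.00833%). An unadjusted p under 0.05 was reached by 0 of the 4 in each of these. The widest difference was that of CCL8 at 24 h, at -1.10 ± 1.37 log2 (SE, limma adjusted p = 0.915), with 2 of 3 labelled pigs higher at 24 h. Without labelled pig 3 it was 1.11. For CCL24 the differences from 0 h were 0.06, -0.14 and 0.07 (SE 0.70), where the last 2 were 1.38 and 1.52 without the 8 arrays against their labelled sex, and for CXCL14 0.02, -0.13 and 0.15 (SE 0.45). Each labelled time holds arrays of both the high and the low CCL8 set, so these values show neither a response to LPS nor its absence. Each most similar pair joins a labelled 0 h and 2 h array or a labelled 7 h and 24 h array. The tests of 2 h against 0 h and of 24 h against 7 h thus set near-alike arrays against each other and could hardly find a difference. None of the genes in the 13 lists was called between labelled times, with adjusted p of 0.914 or higher.

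**Figure D4:**
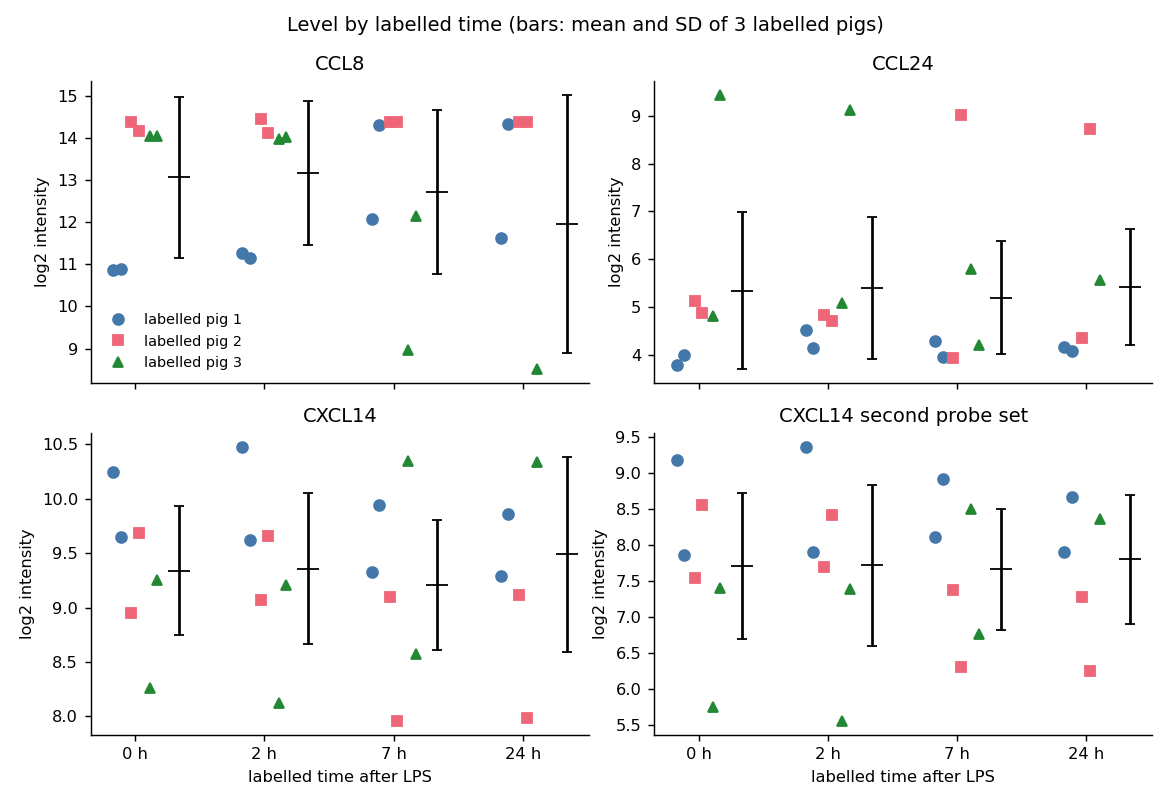
Log2 intensity (vertical axis) of the 4 probe sets by labelled time (horizontal axis), with 1 point an array, the labelled pig as symbol and colour, and bars for the mean and SD of 3 labelled pigs. The points of the 4 labelled times overlap in every panel, and CCL24 has 1 bright array at each.

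Between labelled pigs, CCL8 lay from 10.86 to 14.33 in pig 1, from 14.13 to 14.46 in pig 2 and from 8.51 to 14.05 in pig 3. CCL24 lay from 3.80 to 4.51, from 3.93 to 9.01 and from 4.20 to 9.44, with bright arrays in labelled pigs 2 and 3. CXCL14 lay from 9.29 to 10.48, from 7.96 to 9.68 and from 8.12 to 10.35. The limma F test over pigs called 0 of the 4, where 36.2% of all probe sets were called. CCL24 was nearest at an adjusted p of 0.0536, and 1 of the 4 had an unadjusted p under 0.05. The calls turned on which labelled pig was left out. Without labelled pig 3, 4 of 4 passed (limma adjusted p of 0.0012 to 0.0149), where 36.5% of all probe sets did. Without labelled pig 2, 1 of 4 passed (CCL24, adjusted p = 0.0211 in limma), where 24.8% did, and without labelled pig 1, 0 of 4, where 8.62% did. Each labelled pig holds arrays of both EIF1AY levels, so these are not differences between animals.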

How the data were processed

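RNA of 23 cultures was hybridized to Affymetrix porcine arrays. Each deposited value is the linear intensity of a probe set; per the submitters' processing notes the authors used affy and RMA, whose versions are not stated. RMA corrects background and puts arrays on a shared scale, so only log2 was taken here. Of the probe sets, 124 controls were left out and 23999 tested. The platform annotation gave 1 gene for 10069, several for 198 and none for 13732; symbols were updated through RefSeq identifiers (9961 matched). The probe set of highest mean stood for a gene. With arrays, their number limits the precision.

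Groups came from the labels. Duplicate cultures were averaged to 12 means and tested in limma 3.58.1 (R 4.3.3) on time plus pig (6 residual degrees of freedom), with Benjamini-Hochberg adjustment over all probe sets and a threshold of 0.05. The pig term follows the series description, which has the same animals at every time. Within a labelled pig, deviations from the time means had correlations of 0.27 to 0.97. Arrays labelled 0 and 2 h, and those labelled 7 and 24 h, form most similar pairs, so these correlations do not show an effect of the animal. The test was checked on simulated data with independent noise on each array, no pig effect and true time labels. That check does not bear on paired arrays or on labels that fail. Likeness is Pearson r over 23 arrays. Named were the 5 genes of highest and 3 of lowest r per member among genes spanning at least 1 log2 unit (r of listed genes is given at any span), up to 4 of widest span per list, and all receptors; other names are marked. Members, lists and rules were chosen with earlier results of these data known. The limits of 13 (CCL8) and 7 (CCL24) that divide arrays were set after seeing the values. Alternatives covered the pig block, each pig, a random block, quantile normalization, dim probe sets, arrays against their labelled sex, and for likeness Spearman's rho and averaged pairs.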

Additional observations from a re-analysis of the deposited data

Results flagged for a closer look

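Single arrays stood apart within their labelled time for CCL24 in 3 of 16 combinations of probe set and labelled time, where chance gives about 1 in 20 if combinations are independent, which these are not. Under the 0 h label, pig 3's culture 2 (column 21) had 9.44, against 3.80 to 5.13 on the other arrays. Under the 2 h label, pig 3's culture 2 (column 22) had 9.12, against 4.16 to 5.08. Under the 7 h label, pig 2's culture 2 (column 15) had 9.01, against 3.93 to 5.80. Under the 24 h label, column 16 had 8.73 against 4.09 to 5.57, a gap below the limit for 5 arrays. Columns 15 and 16 and columns 21 and 22 are most similar pairs, and these are the 4 bright arrays described above.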

How the results depend on the processing

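Between labelled times, 0 of the 4 probe sets were called under each alternative run, including the fit with no replicate block, which gave 0 in each comparison of times. With dim probe sets left out, CCL24 was not tested. Over labelled pigs, 2 were called when single arrays were fitted with a random block for pig and time (CCL8 and the second CXCL14 probe set), where 11768 of all 23999 probe sets (49.0%) were, and 0 to 4 when 1 labelled pig was left out. That random block also raised the calls over all probe sets at 2 h from 3 to 30. Of the alternative values of the log2 differences from 0 h, 75 kept their sign and 18 turned it, none of them called. Leaving out 1 labelled pig gave, at 2, 7 and 24 h, ranges of -0.12 to 0.20, -0.95 to 0.85 and -0.66 to 0.89 for CCL24, of -0.013 to 0.18, -1.69 to 1.21 and -2.71 to 1.11 for CCL8, of -0.024 to 0.076, -0.55 to 0.20 and -0.57 to 0.61 for CXCL14, and of -0.048 to 0.059, -0.61 to 0.53 and -0.76 to 0.77 for its second probe set. Without the 8 arrays against their labelled sex, 7 h gave 1.38 for CCL24, 0.070 for CXCL14 and 0.35 for the second probe set, 24 h gave 1.52 for CCL24, and the random block gave -0.091 and -0.19 for the CXCL14 probe sets at 24 h. The cause was not tested. The 9 other spans computed moved by less than 1 SD over arrays. Of the r values, where an r between members counts under each of them, 88 moved by less than 0.1 and 28 by more. Among those 28, Spearman's rho was 0.50 for CCL24 with DEUP1 and 0.80 with LOC396566. For CCL8 it was 0.79 with PCNA, 0.77 with CITED2 and 0.72 with ALAS1. A further 7 r values turned sign within a set of arrays, an alternative added after seeing the data: -0.044 for CCL8 with CCL4, -0.23 and -0.83 for CCL8 with CCL24 in its high and low set, 0.034 for CCL8 with CXCL14, and in the set dim in CCL24 -0.0090 for CCL24 with DEUP1, -0.25 with CCL8 and 0.016 with CXCL14.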
